A study of Drosophila melanogaster with 2 samples.

Results

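The 290 peaks described here lay at single promoters, those with no second protein-coding gene start facing the other way close by; the class rests on annotation, and transcription was not measured. They were taken from the 1140 Doc2-eGFP peaks of the series on the 6 chromosomes analysed (X, both arms of 2 and of 3, and 4), where they were 25.4% of all peaks (22.9% to 28.1%; intervals of shares are exact 95% binomial intervals and cover counting error only). A peak was a member if its summit, the base of highest enrichment, lay within 500 bp of the transcription start site (TSS) of any transcript of a protein-coding gene. It was dropped if the summit lay between a minus-strand TSS on the left and a plus-strand TSS on the right, each within 1000 bp. That removed 213 peaks at divergent promoters, and 637 peaks lay away from promoters. The series had 1 group, whole Drosophila melanogaster embryos aged 0 to 18 h from flies with a Doc2-eGFP transgene, in 2 biological replicates. Chromatin sheared to 200 to 800 bp was precipitated with an antibody against GFP, so a peak shows where the tagged protein was recovered and not in which cells of the embryo. Both replicates carried the transgene, and a line without it was not analysed here. Neither the promoter that drives the fusion nor the number of lines is stated in the labels. The text compares the series list with the own list of each replicate, and single with other promoters.

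Doc2 is a Dorsocross protein, a T-box transcription factor known from the amnioserosa, the dorsal ectoderm and the heart of the fly embryo. A promoter is the stretch around a TSS on which RNA polymerase II assembles. In the compact fly genome many genes lie head to head and share the DNA between their starts, while a single promoter has a gene of the same strand behind it, the far end of another gene, or an intron of its own gene when the TSS is an alternative one. T-box proteins recognise a core that reads GGTGTGA or close to it. GAGA factor sites (GAGAG) and the DNA replication-related element (TATCGATA) are known promoter elements of the fly, the latter mostly of housekeeping genes.

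The first sequences shown are those of 4 members with a 6-letter word on both sides of the summit, shown because the place and direction of this word are described below, each copy reading ACAGTG along the strand that runs toward the summit. The letters are from the RefSeq release 6 genome of the fly (dm6), 5′ to 3′ along the strand of the gene, with the summit in the middle base and the word in capitals. On the far side of the summit it appears as its reverse complement. Rtnl1, which encodes an endoplasmic reticulum shaping reticulon, is on the minus strand at chr2L:4997513-4997773. RluA-1, a pseudouridine synthase gene, is on the minus strand at chr2L:10474382-10474642. PAN3, whose product helps to shorten poly(A) tails, is on the plus strand at chr3L:3081300-3081560. The T-box gene org-1 is on the minus strand at chrX:8455274-8455534. No annotated exon overlaps any of these stretches. In each stretch the copies lie well apart, and A/T-rich sequence fills the space between them.
Rtnl1: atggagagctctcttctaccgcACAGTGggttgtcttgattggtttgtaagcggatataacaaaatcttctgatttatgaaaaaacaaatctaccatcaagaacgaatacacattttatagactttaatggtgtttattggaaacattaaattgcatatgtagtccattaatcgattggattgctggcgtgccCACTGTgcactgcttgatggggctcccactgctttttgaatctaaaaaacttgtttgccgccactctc
RluA-1: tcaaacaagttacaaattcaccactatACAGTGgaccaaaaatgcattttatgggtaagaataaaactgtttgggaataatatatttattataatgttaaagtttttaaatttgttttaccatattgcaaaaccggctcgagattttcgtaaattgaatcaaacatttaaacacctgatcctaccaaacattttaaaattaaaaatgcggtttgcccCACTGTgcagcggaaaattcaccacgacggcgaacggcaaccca
PAN3: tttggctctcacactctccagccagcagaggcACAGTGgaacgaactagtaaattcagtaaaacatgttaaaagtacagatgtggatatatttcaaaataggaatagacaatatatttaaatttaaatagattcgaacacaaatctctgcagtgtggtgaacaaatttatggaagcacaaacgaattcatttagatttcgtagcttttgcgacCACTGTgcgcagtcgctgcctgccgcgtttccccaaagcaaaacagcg
org-1: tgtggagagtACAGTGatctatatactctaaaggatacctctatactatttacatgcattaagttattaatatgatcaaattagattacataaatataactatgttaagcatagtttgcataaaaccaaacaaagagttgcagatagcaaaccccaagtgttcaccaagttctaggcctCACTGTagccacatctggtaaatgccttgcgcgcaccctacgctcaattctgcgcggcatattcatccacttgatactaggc

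For comparison, stretches with the T-box core or the DNA replication-related element are shown, since few members held either, and the sequence under the peak of highest signal. The T-box core is in capitals in the stretch beside REPTOR (chr3R:24572683-24572743, minus strand), a transcription factor gene of the TOR pathway, and beside Ptpmeg2 (chrX:9640690-9640750, minus strand), a tyrosine phosphatase gene. The replication-related element is in capitals beside eEF1gamma (chr3R:29220104-29220164, plus strand), a translation elongation factor gene, and beside Jwa (chr2L:18705874-18705934, minus strand). These stretches are centred on the word and not on the summit. The word lay 81, 86, 34 and 92 bp from the summit in the order named. In the stretch at CG14100 (chr3L:19590572-19590692, minus strand), the member of highest signal, capitals mark the 21 bases centred on the summit. The same holds for CG18549 (chr3R:12449106-12449226, plus strand), which was number 4 among the members by signal. The last pair of stretches held neither the T-box core nor the 6-letter word.
REPTOR: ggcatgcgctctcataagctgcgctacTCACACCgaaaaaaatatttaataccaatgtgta
Ptpmeg2: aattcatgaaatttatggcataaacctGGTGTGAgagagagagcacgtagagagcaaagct
eEF1gamma: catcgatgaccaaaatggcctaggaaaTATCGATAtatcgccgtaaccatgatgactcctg
Jwa: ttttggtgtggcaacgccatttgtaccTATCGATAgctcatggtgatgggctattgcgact
CG14100: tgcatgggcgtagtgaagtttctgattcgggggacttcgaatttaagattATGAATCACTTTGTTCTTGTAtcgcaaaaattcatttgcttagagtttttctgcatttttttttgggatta
CG18549: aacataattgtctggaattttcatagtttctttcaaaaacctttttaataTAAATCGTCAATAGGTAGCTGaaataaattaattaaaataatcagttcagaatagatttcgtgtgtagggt

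Peak signal is the authors' own number for each peak, on a scale that the labels do not define. It had a median of 124 at single promoters, with the middle 50% of members between 89.3 and 183, a lowest value of 3.51 and a highest of 1038. The median was 129 at divergent promoters and 91.1 away from promoters. Single promoters held 34.4% of the 285 series peaks of highest signal, 29.8% of the next 285, 22.1% of the next and 15.4% of the 285 of lowest signal. Of the members, 243 were 350 bp wide with the summit at their middle base, and their median signal was 110. The other 47 were 88 to 274 bp wide with a median signal of 316. The 8 members under a signal of 50 all overlapped a stronger series peak, and the next lowest member had 64.7.

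The replicates met single-promoter peaks at unequal rates. The own thresholded list of replicate 1 overlapped 219 members by 1 bp or more, 75.5% (background 63%, the share of all 1140 series peaks). That of replicate 2 overlapped 139, 47.9% (background 38.9%). Both lists held 130 members, 44.8% (interval 39.0% to 50.8%; background 33.9%), against 48.4% of divergent peaks and 153 of the 637 peaks away from promoters. The conservative list of the series held 256 members, 88.3% (background 81%). Neither replicate list held 62 members, 21.4% (background 32.0%). Overlap went with signal: both lists held 71 of the 73 members of highest signal, 49 of the next 72, 7 of the next 72 and 3 of the 73 of lowest signal. The series list was longer than either replicate list, with 777 and 468 peaks on these chromosomes in replicates 1 and 2. Classified by the same rule, the own list of replicate 1 had 233 single-promoter peaks and that of replicate 2 had 146.

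In the longer ranked lists, which were not cut at an IDR threshold (irreproducible discovery rate, which scores whether peaks rank alike in the data sets compared), 281 members overlapped a peak of both replicates. The signal of replicate 1 was higher in 236 of them, with a median ratio of 1.33 (middle 50% from 1.11 to 1.56). Across these 281 members Spearman's rho between the replicates was 0.781, a description of peaks that share 2 libraries. Of all 1140 series peaks, 1112 overlapped a ranked peak of both replicates. Replicate 1 was higher in 856 of those, with a median ratio of 1.29, and rho was 0.644. At divergent promoters it was higher in 177 of 205, with a median ratio of 1.35 and a rho of 0.792. The remaining 9 members had a ranked peak in 1 replicate only. At CG31145 the signal was 390 in the series list and 222 in replicate 1, with no ranked peak in replicate 2. REPTOR had 211 in the series list and 124 in replicate 1, again with none in replicate 2. The dnc peak with a summit at chrX:3329041 had 68.8 in the series list, 31.2 in replicate 2 and no ranked peak in replicate 1. The other 6 lay at l(3)L1231, jigr1, wun, CG12310, CG2003 and comm3, with series signals from 82.2 to 152.

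**Figure D1:**
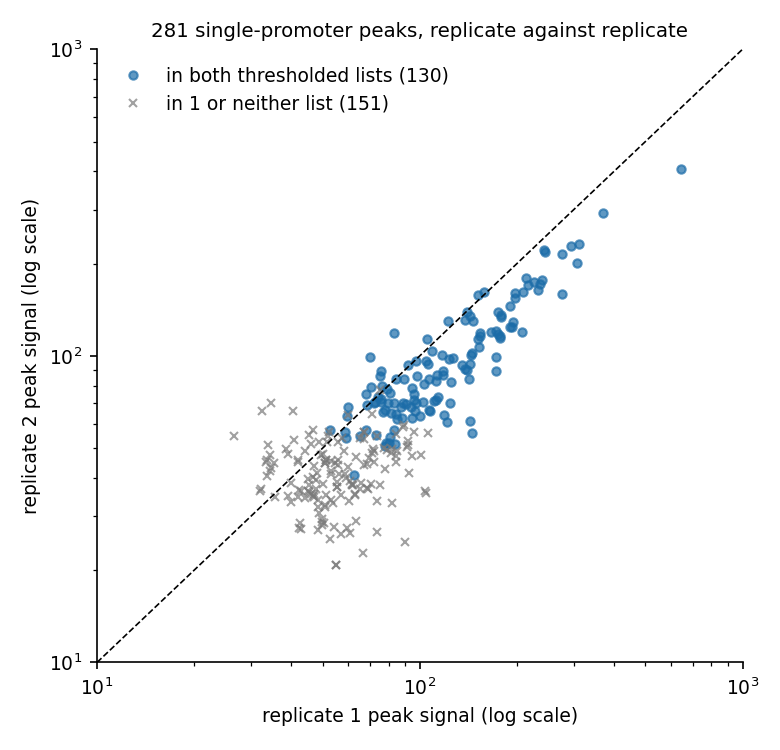
Peak signal of replicate 1 (horizontal, log scale) against replicate 2 (vertical, log scale) for the 281 single-promoter peaks with a ranked peak in both. Filled circles are the 130 members in both thresholded lists, crosses the others, and the dashed line marks equal signal; 236 points lie below it.

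The summits lay upstream of the TSS and at some distance from it. The median position was -166 bp (middle 50% from -263.5 to -86.5), and 240 summits, 82.8% (interval 77.9% to 86.9%), were upstream. Between 100 and 300 bp upstream there were 159, 54.8%, and 14 summits, 4.83%, lay within 50 bp of the TSS. At divergent promoters the median was -95 bp and 16.9% lay within 50 bp. The median was -170 bp in the own list of replicate 1 and -181 bp in that of replicate 2. The distances to the nearer TSS at a divergent promoter are limited by the rule, since a second TSS lies on the other side.

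**Figure D2:**
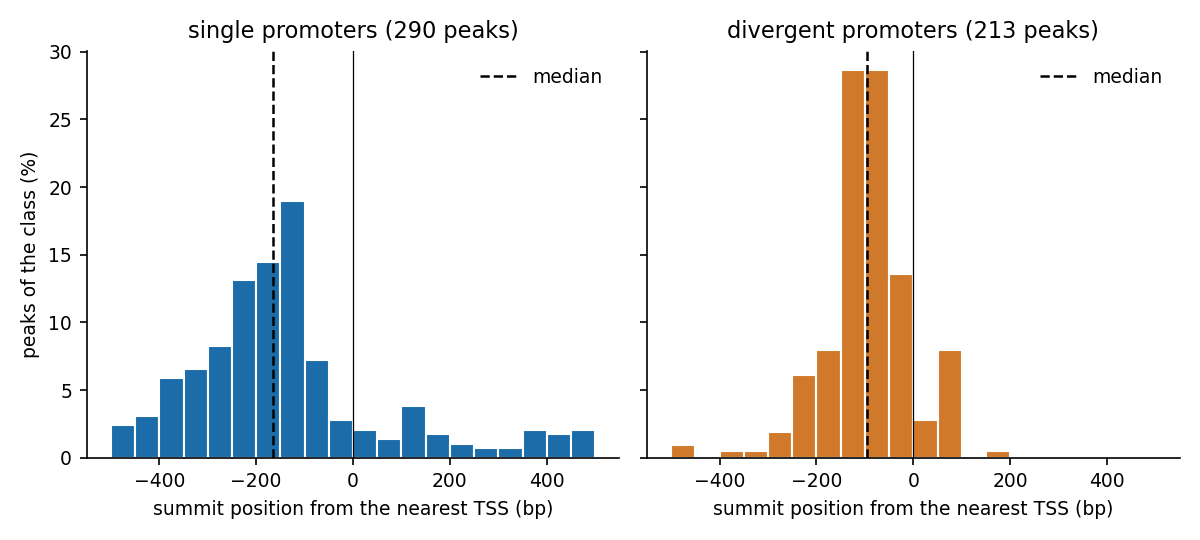
Position of peak summits from the nearest protein-coding TSS (bp, negative upstream) at 290 single and 213 divergent promoters, as percent of each class in 50-bp bins. Dashed lines mark the medians, -166 and -95 bp, and the solid line marks the TSS.

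By annotation, 126 summits (43.4%) were intergenic, 110 (37.9%, interval 32.3% to 43.8%) in an intron, 34 (11.7%) in a 5′ UTR, 18 (6.21%) in a coding exon and 2 in a 3′ UTR. Of all series peaks 45.8% were in an intron, of peaks away from promoters 59.3% and of divergent peaks 16.0%, whose rule places them between gene starts. Inside the gene of the nearest TSS lay 146 members, 50.3%. Between genes, 81 members had a gene of the same strand behind the promoter and 45 had a gene of the opposite strand whose start was too far to count as a partner. A further 13 lay inside another gene on the opposite strand and 5 inside another gene on the same strand. When TSSs of all gene types counted as partners, 13 members became divergent.

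Alternative promoters made up much of the class. For 111 members, 38.3%, the nearest TSS was not the outermost one of its gene. The share was 34.2% for peaks away from promoters, 31.8% for all series peaks and 16.0% at divergent promoters. Of all 19607 TSSs of protein-coding genes 28.9% were not the outermost one. Of these 111, 93 lay in an intron. Their median position was -193 bp, their median signal 131, and 56 (50.5%) were in both replicate lists. For the 179 members at an outermost TSS the median position was -145 bp, the median signal 119, and 74 (41.3%) were in both lists. With the outermost TSS of each gene as the only one, 241 peaks were at single promoters and 18.7% of them were in an intron, which follows from leaving the internal TSSs out.

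The 290 members belonged to 278 genes, 1.99% of the 13945 protein-coding genes. Their genes were long: the median length was 6513.5 bp, against 2166 bp for all protein-coding genes and 2574 bp for genes of divergent-promoter peaks. More than 1 TSS was annotated for 163 of the 278 (58.6%), 46.9% of the divergent genes and 26.5% of all genes. The rule accepts the TSS of any transcript, so a gene with several TSSs had more places where a peak could count. The part of this in the gene lengths and TSS numbers was not tested. The X chromosome held 58 members, 20%, against 17.7% of all series peaks, 18.7% of peaks away from promoters, 11.7% of divergent peaks and 15.7% of protein-coding genes. Chromosome 4 held no member and no series peak at all.

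Several genes had more than 1 member peak, in most of them near different TSSs. Ptpmeg2 had 3 peaks, each upstream of a different TSS, at -182, -201 and -185 bp, with series signals of 87.0, 231 and 194. dnc, which encodes a cAMP phosphodiesterase known from learning mutants, had 3 at -356, -266 and -366 bp with signals of 131, 213 and 68.8. Rtnl1 had 2, at -262 and -194 bp, with signals of 428 and 176, both in both replicate lists. The peaks of Ptpmeg2 and Rtnl1 were alike in place and unlike in size. brwl had signals of 287 and 107, CHES-1-like, a forkhead factor gene, 94.3 and 124, and Syx4, a syntaxin gene, 122 and 80.1. In 4 more genes the second peak was a weak one that overlapped a stronger peak: hid, a cell death gene, had 93.8 and 20, and smg, which encodes a translational repressor of early embryos, 98.1 and 5.37. The others were wrd and Nadk1a. In hid and wrd both peaks had the same nearest TSS.

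The 24 members of highest signal in both replicate lists had series signals from 316 to 1038. Of their summits 19 were upstream of the TSS, 12 were intergenic, 5 in an intron and 7 in a 5′ UTR, and 7 belonged to an internal TSS. Replicate 1 was higher in 23 of the 24, the exception being ph-p. Over all series peaks with a ranked peak in both replicates it was higher in 856 of 1112. At CG14100 (FBgn0036889, chr3L:19590483-19590756), a gene known only by its number, the series list gave 1038, replicate 1 gave 645 and replicate 2 gave 408. Its peak was the first by signal in replicate 1 and the third in replicate 2, with the summit 108 bp upstream in intergenic DNA. CG18549 (FBgn0038053, chr3R:12449056-12449287) had 501, 295 and 229 in the same order, at -130 bp.

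Genes of protein synthesis and handling were among them, listed here with RluA-1 and Rtnl1. The groups only order the list and were not tested. eIF6 (FBgn0034915, chr2R:23850283-23850522), whose product acts on the large ribosomal subunit, had a series signal of 657, with 370 in replicate 1 and 292 in replicate 2. Its summit lay 102 bp upstream, inside an intron of another gene on the same strand. Fkbp14 (chr2R:21497219-21497431), a peptidyl-prolyl isomerase gene, had 461, 243 and 222 at an internal TSS. TRAM, a gene of the endoplasmic reticulum translocon, had 316, 179 and 136. RluA-1 had 320, 190 and 124, and Rtnl1 (chr2L:4997559-4997762) had 428, 276 and 159. In each of these, replicate 1 was the higher one.

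Genes of stress responses and metabolism were others, listed here with amon. GstE13 (FBgn0033381, chr2R:9122094-9122322), a glutathione S-transferase gene, had a series signal of 540, with 311 in replicate 1 and 232 in replicate 2, and its summit 74 bp downstream in the 5′ UTR. Atf3 (FBgn0028550, chrX:1275437-1275607), a bZIP factor gene, had 393, 226 and 174 at -201 bp. Sesn, the sestrin gene, had 341, 216 and 170 at -213 bp. amon, which encodes a prohormone convertase, had 398, 232 and 164 at -234 bp. These last 3 summits were intergenic and all lay 201 to 234 bp before the start.

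Regulators of transcription were also present, listed here with px. Sox14 (FBgn0005612, chr2R:23978439-23978674), an HMG-box factor gene, had a series signal of 499, with 308 in replicate 1 and 201 in replicate 2. px, a wing vein patterning gene, had 408, 235 and 172 at an internal TSS. ph-p (FBgn0004861, chrX:2137770-2137922), a Polycomb group gene, had 316, 159 and 162, 482 bp inside the transcript. ph-p has a tandem copy, ph-d, beside it, so reads from sequence that both share may be uncertain in origin. The remaining 10 were CG8320, CG1888, tank, Tina-1, CG11857, MFS10, CG3009, CG1635, CG9147 and CG13921. Their series signals ran from 318 to 463.

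**Figure D3:**
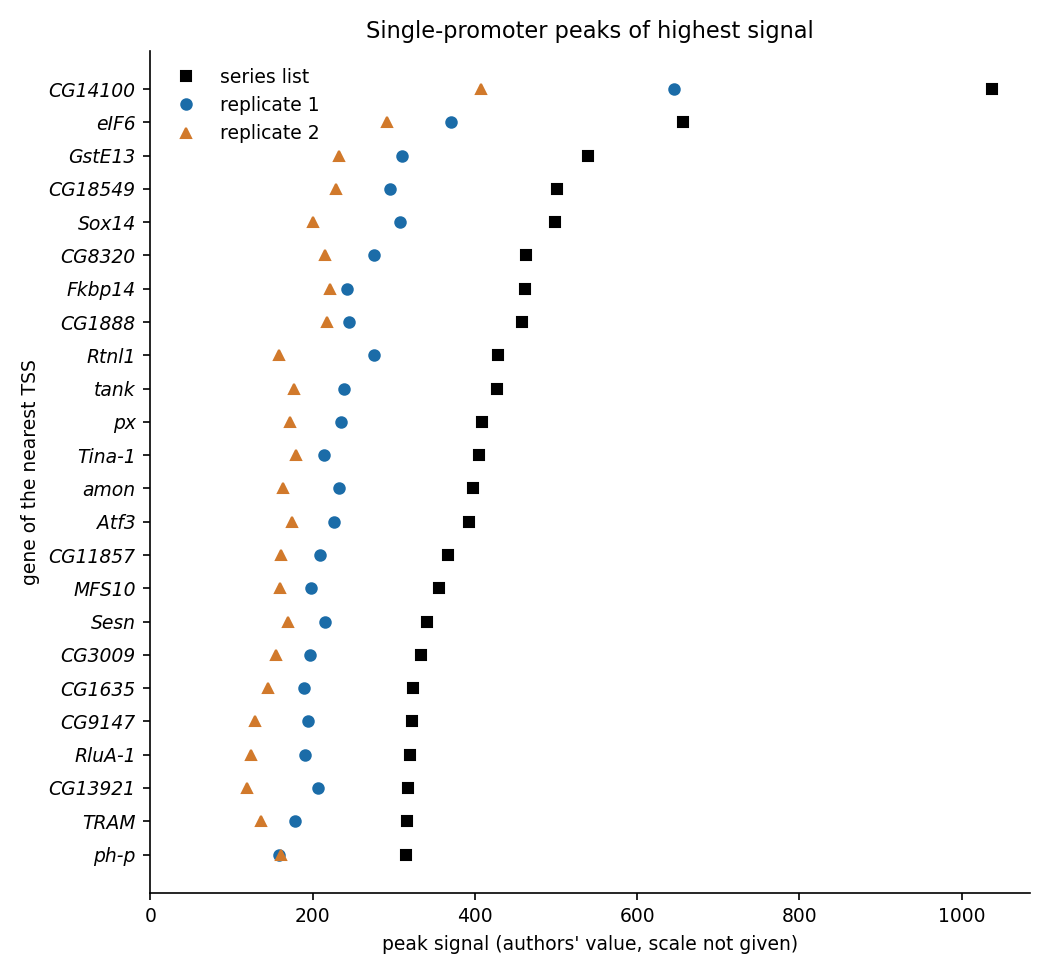
Peak signal of the 24 single-promoter peaks of highest signal in both replicate lists (squares, series list; circles, replicate 1; triangles, replicate 2), by the gene of the nearest TSS. Series values run from 316 at ph-p to 1038 at CG14100, and replicate 1 is higher than replicate 2 in 23 of 24.

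Other members show the arrangements of the class. aay, a phosphoserine phosphatase gene, had a series signal of 295, with 175 in replicate 1 and 118 in replicate 2, its summit inside a gene of the opposite strand. elav, the gene of a neuronal RNA-binding protein, had 280, 146 and 130 in the same arrangement. So did moody, a receptor gene of the blood-brain barrier, with 264, 172 and 99.1. PAN3, at an internal TSS in its own intron, had 306, 193 and 124. In all of these the summit lay upstream, at -216, -265, -173 and -138 bp.

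Close to the 500-bp limit, the members CG8128 and Fbl6 lay at 494 and 497 bp with signals of 143 and 142. Just outside lay a stronger second peak of ph-p, 501 bp upstream, with 666 in the series list, and one of Eip63F-1 at 503 bp with 105. For the 1000-bp limit, CG31431 and CG31635 stayed members with the farther opposite TSS at 1022 and 1031 bp and signals of 229 and 127. lig and Hmt4-20 were dropped with it at 949 and 955 bp, with signals of 93.2 and 172.

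Among housekeeping gene groups, 4 of 87 cytosolic ribosomal protein genes (4.60%) had a single-promoter peak and 9 (10.3%) a divergent-promoter peak. Of all protein-coding genes 1.99% had the former and 1.53% the latter, so lists of this size hold few by that share alone. RpL23A had a series signal of 161, with 84.1 in replicate 1 and 83.8 in replicate 2. RpL30 had 87.8, 42.0 and 45.9, RpL17 80.7, 59.5 and 27.5, and RpL22 78.7, 57.0 and 26.2. All 4 summits were intergenic and 35 to 109 bp upstream, and only RpL23A was in both replicate lists. None of 73 mitochondrial ribosomal protein genes had one, nor any of 33 aminoacyl-tRNA synthetase, 48 proteasome or 19 insulator and promoter architecture genes. Those lists had 2, 3, 1 and 1 divergent-promoter peaks. eIF6 was the 1 member among 44 initiation factor genes, and COX6AL, a cytochrome c oxidase subunit gene, the 1 among 86 genes of the respiratory chain, with 79.5.

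The 8 lists of developmental genes, from T-box to Hox, had 0 to 2 genes each with a single-promoter peak and 0 with a divergent-promoter peak. They hold 8 to 22 genes each, too few to set such counts apart from the shares over all genes. Of 8 T-box genes 2 were members. org-1 (FBgn0021767, chrX:8455376-8455468) had a series signal of 203, with 145 in replicate 1 and 55.9 in replicate 2, at -335 bp. Doc2 itself (FBgn0035956, chr3L:9018673-9019022), the gene of the tagged protein, had 103, 51.6 and 52.3 with its summit in a coding exon, 398 bp inside the transcript. It was in neither replicate's thresholded list. tkv, the Dpp type I receptor gene that stands in both the amnioserosa and the Dpp list (1 of 15 and 1 of 16 genes), had 74.6, 33.6 and 45.8. spi, an EGF receptor ligand gene and 1 of 14 of its list, had 161, 75.6 and 89.6. sgg, the GSK-3 kinase gene and 1 of 17 Wnt genes, had 154, 96.0 and 56.5. E(spl)m3-HLH, a Notch target and 1 of 13 genes, had 147, 68.0 and 75.1 at -448 bp. tkv, spi and sgg peaks lay in introns at internal TSSs. None of 22 heart and dorsal mesoderm genes and none of 8 Hox genes had one. In the Polycomb and trithorax list, 2 of 19 genes had one, ph-p and Su(z)12, a subunit gene of Polycomb repressive complex 2, with 121.

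The word ACAGTG, counted on both strands within 100 bp of the summit, was in 72 members, 24.8% (interval 19.96% to 30.2%). It was in 16.0% of divergent and 23.9% of distal peaks. Of 9459 single promoters without a series peak, read 166 bp before the outermost TSS of each gene, 7.85% held it. The members were placed by any TSS, internal ones included, so the 2 sets are unlike. With the outermost TSS alone, 17.8% of 241 single-promoter peaks held the word. The same unlikeness holds wherever members are set beside promoters without a peak or all promoters. The word lay beside the summit more often than at it: 8.28% of members had a copy within 50 bp of it, 18.3% between 50 and 100 bp and 15.5% between 100 and 150 bp. The share was 25.8% in the own list of replicate 1 and 29.5% in that of replicate 2. A longer form, GCACAGTGG, was in 7.24% of members, 1.88% of divergent peaks, 4.55% of distal peaks and 0.581% of promoters without a peak. In the promoter window of 250 bp before to 50 bp after the TSS, ACAGTG was in 29.5% of 288 member TSSs and 13.9% of all 13945 promoters.

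The copies were oriented. Between 25 and 150 bp from the summit there were 133 copies, and 100 of them, 75.2% (interval 67.0% to 82.3%), read ACAGTG toward the summit. Of these, 43 were upstream on the strand of the gene and 57 downstream on the other strand, while 33 pointed away. Promoters without a peak have no summit, so direction was read around the point 166 bp before the TSS, and 52.5% of copies pointed to it. Such a fixed point favours neither direction beforehand, so this share is a baseline and not a test. The share pointing to the summit was 72.3% at divergent promoters and 79.6% away from promoters, so the other classes had it too. In the own lists it was 80% in replicate 1 and 86.0% in replicate 2. The orientation was examined after the counts of the word had been seen.

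A copy pointing to the summit was present in 70 members, 24.1%. Of promoters without a peak, 5.50% had a copy pointing to the fixed point 166 bp before the TSS. Members with a copy pointing to the summit had a median signal of 147 and 65.7% of them were in both replicate lists. The other 220 had a median of 111 and 38.2%. A difference of the same direction was seen in the other classes. At divergent promoters the medians were 176 and 126, with 74.3% and 43.3% in both lists. Away from promoters they were 112 and 88.8, with 35.5% and 20.4%. Copies on both sides of the summit were found in 27 members, 9.31%, against 3.76% of divergent peaks and 6.91% of distal peaks. Around the fixed point, 0.127% of promoters without a peak had them. The centres of the inner copies were a median of 174 bp apart (middle 50% from 157.5 to 181, range 78 to 265), and their midpoint was a median of 3.5 bp upstream of the summit. Copies were counted only from 25 to 150 bp on each side of the summit, which limits both the gap and the midpoint. These medians alone therefore do not show a preferred spacing or centring. Whether copies placed at random in that window would give the same values was not tested. The sequences of Rtnl1, RluA-1, PAN3 and org-1 printed above had gaps of 171, 190, 181 and 169 bp. Both Rtnl1 peaks had such a pair, with gaps of 171 and 174 bp. CG1635 had one of 185 bp, ph-p of 178 bp, and 1 of the Ptpmeg2 peaks of 157 bp.

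Over the 6 chromosomes, pairs of copies that point at each other were counted by their gap, and the series summits within 50 bp of a pair's midpoint were looked up. At gaps from 155 to under 180 bp there were 324 such pairs, and 37 (11.4%) had a summit, of which 13 were at single promoters, 2 at divergent promoters and 22 away from promoters. At gaps from 130 to under 155 bp 18 of 212 pairs had one (8.49%), 2 of them at single promoters and 16 away from promoters. At gaps from 180 to under 205 bp 15 of 290 pairs had one (5.17%). At shorter gaps it was 4 of 125 (3.2%) from 80 to under 105 bp and 3 of 174 (1.72%) from 105 to under 130 bp. At longer gaps it was 6 of 263 (2.28%) from 205 to under 230 bp and 5 of 268 (1.87%) from 230 to under 255 bp. From 255 to 280 bp it was 6 of 196 (3.06%). In every gap range most pairs had no series peak. This count was not among the planned results, and the word came from an earlier search on these data. Pairs at single-promoter summits described above are counted here again. The count is therefore no separate support for a spacing.

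**Figure D4:**
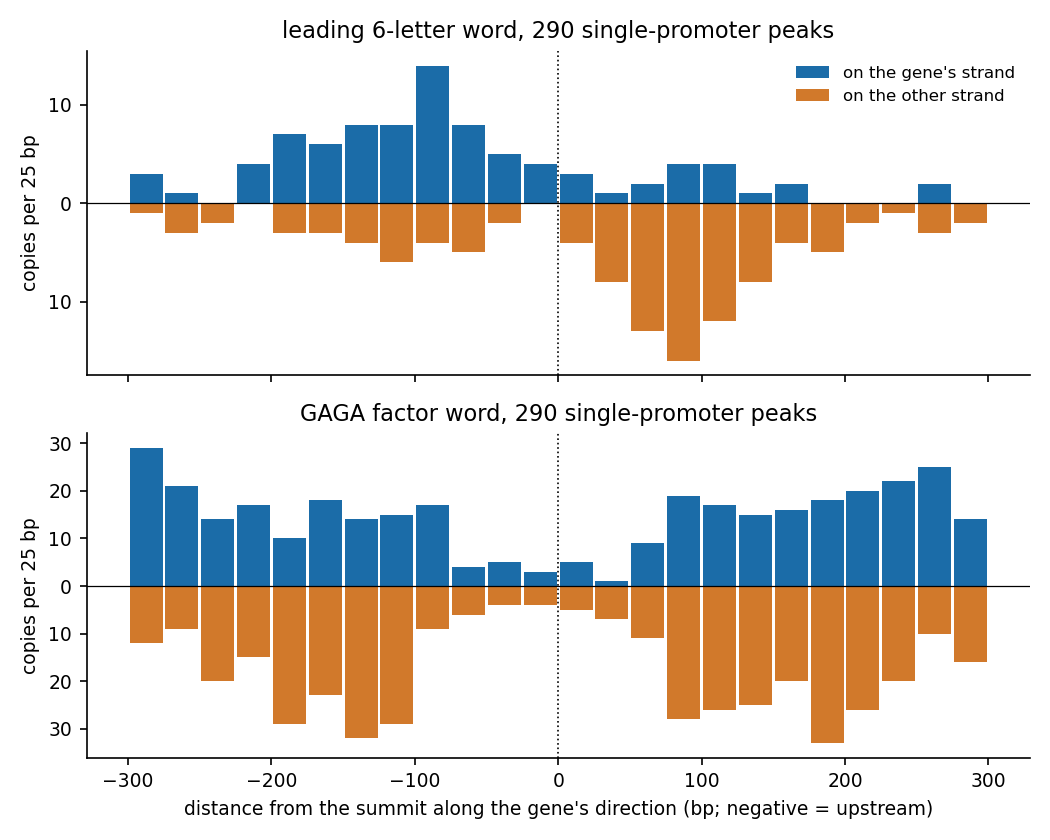
Copies of the 6-letter word (top) and of the GAGA factor word (bottom) per 25 bp around the 290 single-promoter summits, by distance along the direction of the gene (bp). Bars above 0 count copies on the strand of the gene and bars below 0 copies on the other strand; the 6-letter word lies on the gene strand upstream (43 of the copies 25 to 150 bp away) and on the other strand downstream (57).

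GAGAG was less frequent at the summit than beside it. It was in 10.7% of members within 50 bp of the summit, 20% between 50 and 100 bp, 28.3% between 100 and 150 bp and 29.7% between 150 and 200 bp. Promoters without a peak had 13.7%, 14.4%, 12.9% and 11.6% in the same rings. Counted from the TSS, GAGAG was in 21.5% of the 288 member TSSs between 100 and 50 bp upstream and in 9.49% of promoters without a peak. Over the whole promoter window it was in 53.1% (interval 47.2% to 59.0%), in 32.2% of promoters without a peak and in 29.7% of all promoters. Within 100 bp of the summit it was in 29.0% of members (interval 23.8% to 34.6%), 13.6% of divergent peaks, 27.6% of peaks away from promoters and 23.4% of promoters without a peak. Of peaks away from promoters 11.9% held it within 50 bp of the summit and 22.3% between 150 and 200 bp.

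Several words were rarer in members than in divergent peaks. Against promoters without a peak, TTAAAA and the Mef2 site were more frequent in members and the others less. TATCGATA was in 5 members, 1.72% (interval 0.562% to 3.98%), in 7.98% of divergent peaks and in 2.05% of promoters without a peak. CGATA, the site of the insulator protein BEAF-32, which is contained in TATCGATA, was in 22.4% of members, 35.7% of divergent peaks and 26.4% of promoters without a peak. TTAAAA was in 46.6%, 61.5% and 41.9% in the same order. TAATTA, a homeodomain site, was in 14.5%, 25.8% and 16.2%, and the Mef2 site in 13.8%, 20.2% and 10.3%. For these words single promoters lay nearer to promoters without a peak than divergent ones did.

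The T-box core GGTGTGA was in 3 members, 1.03% (interval 0.214% to 2.99%), in 1.88% of divergent peaks, 1.73% of distal peaks and 1.38% of promoters without a peak. CAGGTAG, the site of the early activator Zelda, was in 0 of 290, which allows a share of up to 1.03% at a floor of 3 counts (1.26% by the exact interval), and in 1.44% of promoters without a peak. TATAAA was in 32.4% of summit windows, against 30.6% of promoters without a peak. The initiator word TCAGT, on the strand of the gene within 7 bp of the TSS, was at 48 of 288 member TSSs, 16.7% (interval 12.6% to 21.5%). It was at 4.69% of TSSs of divergent peaks and 11.6% of single promoters without a peak.

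Base composition dipped at the summit and stepped across it. Mean G+C was 34.5% ± 12.4 (SD over 290 members) in the 50 bp before the summit and 36.8% ± 12.7 in the 50 bp after it. It was 41.5% at 100 to 150 bp upstream and 47.3% at 100 to 150 bp downstream, toward the gene. At divergent promoters it was lower at the summit, 29.1% in the 50 bp before it. There it was 38.4% at 100 to 150 bp upstream and 43.9% at 100 to 150 bp downstream. Peaks away from promoters dipped too, to 39.6% in the 50 bp before the summit. They had 45.3% at 100 to 150 bp on either side. Promoters without a peak were not profiled, so whether the step is particular to promoters with a peak was not tested. The motif shares given above were not corrected for base composition, so the part of A/T content in the shares of the TTAAAA word, the homeodomain word and the Mef2 site was not tested.

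**Figure D5:**
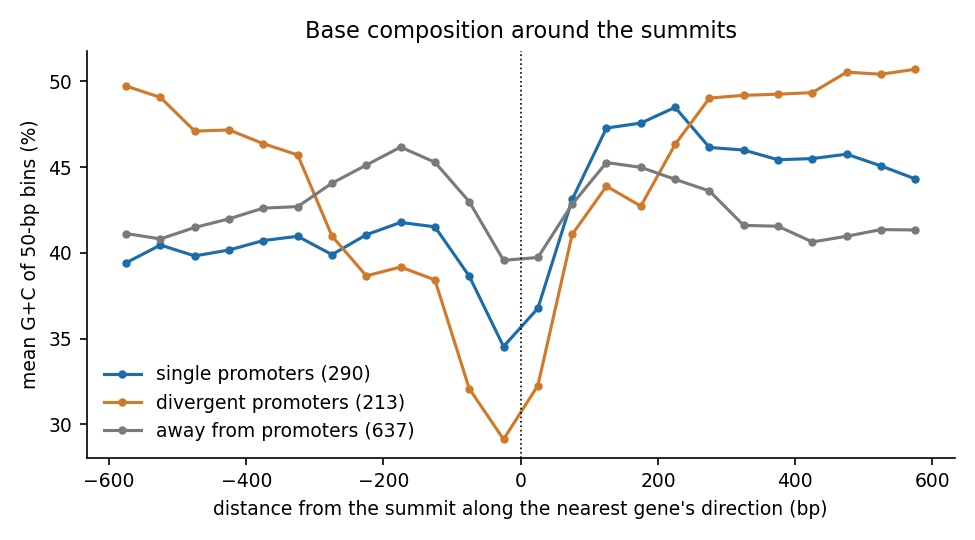
Mean G+C (%) of 50-bp bins by distance from the summit along the direction of the nearest gene (bp), for 290 single-promoter, 213 divergent-promoter and 637 distal peaks. The single-promoter line falls to 34.5% before the summit and rises to 47.3% at 100 to 150 bp downstream.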

How the data were processed

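Chromatin immunoprecipitation was analysed from 2 biological replicates of whole embryos. The authors deposited peak lists filtered by IDR for the series and for each replicate, on dm6 per the labels; for aligner and caller, names were not given in the sources used here. A control is listed in the labels and was not analysed here. The signal of a peak is the authors' deposited value, used only to describe and rank peaks within a list. Read counts were not used, so depth is unknown.

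Of 1230 series peaks, 1140 were on the 6 chromosomes. TSSs of every transcript of 13945 protein-coding genes came from Ensembl release 115, whose coordinates and the RefSeq genome are those of the same release 6 assembly. A replicate's value is that of its strongest peak overlapping the series peak by 1 bp or more; a weak member beside a stronger peak therefore shares the replicate value of its neighbour. Where annotations overlapped, a summit went to the first of 5′ UTR, coding exon, 3′ UTR, intron, intergenic. Intervals are exact Clopper-Pearson intervals at 95%. They cover counting error only, and peaks are not replicates of a condition, so no test was made. Words were counted on both strands, overlaps between words allowed. Genes named are the 24 members of highest signal in both replicate lists, up to 4 per gene list and arrangement, those next to each limit, and those whose words are shown. A gene named elsewhere was chosen after its values were seen. The members, gene lists and words were chosen with earlier results of these data known, and ACAGTG and TTAAAA came from an earlier search on them. The Notch list lost Dl, which matched no current symbol. Results were recomputed with the conservative list, single replicates, and other distances, TSS sets, windows and overlaps. Classification, overlap and word counts were tested on simulated data. Tools were matplotlib 3.10.9, scipy 1.17.1, pandas 2.3.3 and numpy 2.4.6 under Python 3.11.15.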

Additional observations from a re-analysis of the deposited data

How the results depend on the processing

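Of 122 values recomputed over 9 results, most of them counts or shares that have no direction, 96 stayed within 1.5 times the count, the interval of the share or 1 SD between the replicates' medians (7.78 bp), and 26 moved further. From the own lists of single replicates, the number of single-promoter peaks ranged from 146 to 233, their share from 29.99% to 31.2%, the median position from -181 to -170 bp, the upstream share from 85.6% to 87.1%, the intron share from 41.2% to 43.2%, the ACAGTG share from 25.8% to 29.5%, the TATCGATA share from 1.37% to 1.72% and the share of copies pointing to the summit from 80% to 86.0%; the share in both replicates has no value there. With a 250-bp TSS limit there were 193 members, 16.9% of the series, at a median of -136 bp. With 1000 bp the share was 35.4%, 74.8% were upstream and 45.8% in an intron. Divergence distances of 500 and 2000 bp gave 28.2% and 22.7%. With the outermost TSS alone the share was 21.1%, the median -117 bp, 67.2% were upstream, 18.7% in an intron and 17.8% held ACAGTG. The 570 series peaks of highest signal held 183 members (32.1%), of which 69.4% were in both replicates and 83.0% of copies pointed to the summit. Windows of 50 and 250 bp gave 7.93% and 39.7% for ACAGTG, and 250 bp gave 5.17% for TATCGATA. These causes were not tested. Leaving out weak members or those beside a stronger peak, and every alternative for the orientation of copies, was chosen after seeing the data. No paired analysis was possible because there was 1 group and no test. Unknown depth limits what can be said of peaks missing from a replicate's list.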
